A study of Mus musculus with 6 samples.

Results

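Genes of the MHC class I presentation pathway were examined in kidneys of mice with polycystic kidney disease, as 10 genes chosen by name, namely the heavy chains *H2-K1* and *H2-D1*, the light chain *B2m*, the peptide transporter genes *Tap1* and *Tap2*, the loading factor *Tapbp*, the immunoproteasome subunits *Psmb8*, *Psmb9* and *Psmb10*, and the regulator *Nlrc5*. All 10 were found, among 23276 gene symbols, and together they held 20 of the 54721 transcript entries. Whole-kidney RNA came from 6 mice. Of these, 3 carried KspCre with Pkd1 F/RC, which is a floxed *Pkd1* allele over a hypomorphic RC allele (SKO), and 3 carried in addition miR17~92 F/F, the floxed microRNA cluster (DKO). Ksp/Cre recombines floxed alleles in renal tubules, so other kidney cells keep the cluster, and the RC allele is germline. The labels give postnatal day 22 as the age, the study's text gives 21 days, and the mice were kept on the B6 background. The table used here holds 1 mean abundance for each transcript, pooled over the libraries, and no value for a single kidney. Its other 4 columns are the authors' own comparison of the groups and were not used. No difference between DKO and SKO could therefore be measured, no value below has a replicate error, and the level of the floxed cluster could not be checked in either group.

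MHC class I molecules show peptides from inside the cell to CD8 T cells and natural killer cells. The immunoproteasome cuts proteins into peptides, TAP1 and TAP2 form the pump that carries these into the endoplasmic reticulum, and tapasin, the product of *Tapbp*, holds the empty heavy chain and beta-2 microglobulin beside that pump until a peptide is bound. NLRC5 is a transactivator that works at the promoters of class I genes, and interferon-gamma is known to raise most of these genes. In kidney, class I is carried by tubule, endothelial and immune cells, and in RNA of whole tissue fewer cells of a type and less RNA per cell cannot be told apart.

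The promoters of the heavy and light chain genes are shown first because they share an arrangement that the choice of genes did not use. The sequences are those of RefSeq (GRCm38.p6, the assembly that mm10 names) on the strand of the gene, from 250 bases before its annotated start to 50 bases from the start on. Capitals mark matches to 4 motifs sought on both strands. These were an interferon response element core (GAAANNGAAA), a kappa B element (GGGNNTTNCC), the core of a CRE, which is the second part of the class I X box (TGACG), and an inverted CCAAT box, as in the Y box (ATTGG).

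*H2-K1*, chr17:34000298-34000597, reverse strand: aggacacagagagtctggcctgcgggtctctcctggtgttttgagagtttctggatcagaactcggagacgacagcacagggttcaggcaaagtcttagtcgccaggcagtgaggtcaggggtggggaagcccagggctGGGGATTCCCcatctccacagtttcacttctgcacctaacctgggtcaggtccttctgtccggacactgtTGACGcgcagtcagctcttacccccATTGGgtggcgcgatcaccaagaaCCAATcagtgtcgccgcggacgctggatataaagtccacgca

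*H2-D1*, chr17:35262844-35263143, forward strand: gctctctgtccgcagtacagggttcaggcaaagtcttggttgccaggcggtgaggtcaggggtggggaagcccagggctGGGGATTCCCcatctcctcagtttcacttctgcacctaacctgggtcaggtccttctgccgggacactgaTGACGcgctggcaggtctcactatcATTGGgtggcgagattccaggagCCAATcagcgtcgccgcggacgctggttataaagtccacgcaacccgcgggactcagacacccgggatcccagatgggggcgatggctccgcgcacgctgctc

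*B2m*, chr2:122147437-122147736, forward strand: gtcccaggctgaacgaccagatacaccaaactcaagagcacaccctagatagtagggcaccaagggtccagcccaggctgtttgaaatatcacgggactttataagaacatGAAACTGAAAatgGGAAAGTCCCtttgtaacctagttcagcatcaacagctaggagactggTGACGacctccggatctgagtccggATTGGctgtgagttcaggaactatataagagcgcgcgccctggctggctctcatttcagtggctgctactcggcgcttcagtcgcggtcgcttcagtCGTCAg

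*Tap1*, chr17:34187306-34187605, forward strand: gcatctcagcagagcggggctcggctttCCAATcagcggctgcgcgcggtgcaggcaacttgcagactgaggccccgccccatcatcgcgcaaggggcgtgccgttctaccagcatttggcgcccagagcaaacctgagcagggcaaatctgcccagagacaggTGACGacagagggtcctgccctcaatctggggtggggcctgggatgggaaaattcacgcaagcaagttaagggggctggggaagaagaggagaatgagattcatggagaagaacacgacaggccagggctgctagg

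In *H2-K1*, *H2-D1* and *B2m* alike, the CRE core was followed on the same strand by an inverted CCAAT box whose first base lay 25 bases downstream. This spacing, chosen after the sequences were seen, occurred on the gene's strand in 16 of 27025 promoters (0.0592%), and on either strand in 26 (0.0962%). The 16 include the 3 members from which the spacing was taken, so this share is no test of their match. The windows of both heavy chain genes hold nearly the same letters along this stretch, so they are not separate cases. The kappa B match began 70 bases upstream of the CRE core in both heavy chain genes and 48 bases upstream in *B2m*. *B2m* alone of the 8 members with a window held the exact letters of the interferon response element core, at -139 from its start. Those letters were found in 3.49% of all promoters, and variants of them were not sought. A kappa B match was present in 3 members and in 4.71% of promoters, a CRE core in 5 members and 21.02% of promoters, and an inverted CCAAT box in 6 members and 37.9% of promoters. Windows were given for 8 members, not for *Tap2* or *Nlrc5*, and those of *Psmb8* and *Psmb10* held no match. *Tap1* and *Psmb9* are transcribed away from each other with 225 bases between their RefSeq starts, and 275 bases of the *Tap1* sequence above are also the promoter window of *Psmb9* on the other strand. That segment held 1 CRE core and 1 inverted CCAAT box, without the 25-base spacing. A match describes letters in these windows and does not show that a factor binds there. The lack of a match does not show that a promoter has no such element, in the heavy chain genes included.

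Levels are given in CPM, read counts scaled to a common library total, and, for any comparison between genes, as CPM per kb of the RefSeq transcript. *B2m* was by far the most abundant member, with 210.1 CPM per kb, and *Nlrc5* the least abundant, with 0.226 CPM per kb, 929.6 times lower. That fold depended on the scale, and was 1838 per kb of coding sequence and 115.1 in CPM not divided by length. Between them the order was *H2-K1* (26.6 CPM per kb), *H2-D1* (24.96), *Tapbp* (10.6), *Psmb10* (3.91), *Psmb8* (2.23), *Tap2* (2.15), *Tap1* (1.29) and *Psmb9* (1.14). The median over 20167 genes with a RefSeq transcript and a length was 1.404 CPM per kb, and 7 of the 10 members lay above it. Over the 12499 of these genes with at least 1 CPM the median was 4.06 CPM per kb, and 4 members lay above that. Ranked over these expressed genes alone, *B2m* was at percentile 99.5, *H2-K1* at 92.0 and *H2-D1* at 91.5, *Tapbp* was at 78.7 and *Psmb10* at 48.8, and *Psmb8*, *Tap2*, *Tap1*, *Psmb9* and *Nlrc5* were at 31.0, 29.9, 17.5, 15.4 and 0.640. The limit of 1 CPM was set before division by length, so a long transcript just above it ranks near the bottom. *Nlrc5*, with 1.57 CPM over 6945 bases, is such a case. In CPM not divided by length, over all 20167 genes, it was at percentile 40.8. Among the members, those shown at the cell surface were near the top. The immunoproteasome and transporter members lay below the middle of the expressed genes. This contrast depends on which genes are members. The standard core subunits of the proteasome, given below, are not, and lay at percentiles 89.6 to 98.2 of the 20167 genes. Because the spread between kidneys is not known, neighbours with close values, such as *H2-K1* and *H2-D1*, *Psmb8* and *Tap2*, or *Tap1* and *Psmb9*, cannot be put in order.

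**Figure D1:**
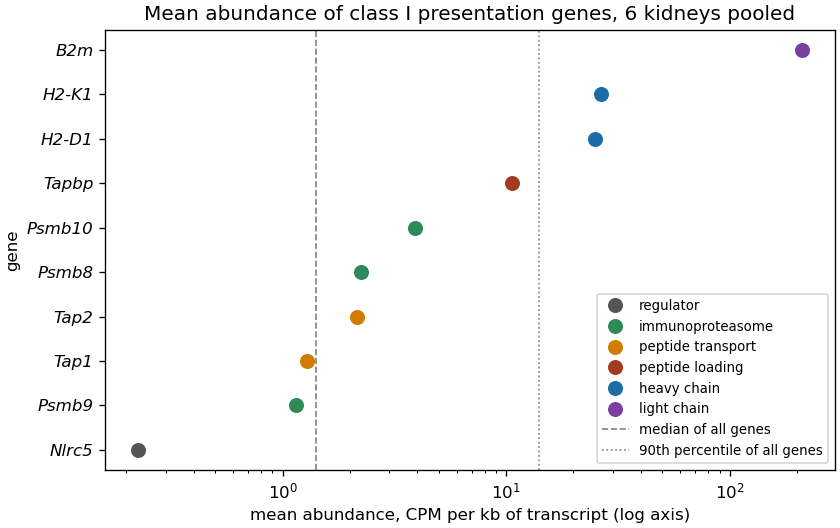
Mean abundance of the 10 genes in CPM per kb of transcript on a log axis, pooled over 6 kidneys and coloured by role, with no error because the table holds 1 value for each transcript. *B2m* lies at 210.1, both heavy chains, at 26.6 and 24.96, lie right of the 90th percentile of all genes (13.98), and *Tap1*, *Psmb9* and *Nlrc5* lie left of the median (1.404).

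*B2m* encodes beta-2 microglobulin, the light chain that every class I heavy chain needs. It is annotated at 122147686 to 122153083 of chromosome 2 (forward strand) and its transcript of 860 bases has 4 exons. Its single entry had 180.7 CPM, and 65 genes had a higher value per kb. That places it at percentile 99.7 of the 20167 genes. *H2-K1*, on the reverse strand of chromosome 17 from 33996017 to 34000347, had 43.0 CPM over a transcript of 1619 bases. *H2-D1*, on the forward strand from 35262730 to 35267499, had 52.6 CPM in its highest entry, and 52.5 CPM in its RefSeq entry of 2102 bases. Both genes have 8 exons and encode the classical heavy chains that bind peptide. Per kb they were at percentiles 95.0 and 94.7. The level of *B2m* per kb was 7.90 times that of *H2-K1* and 8.42 times that of *H2-D1*, and 4.08 times their sum of 51.5 CPM per kb. *H2-K1* and *H2-D1* had a ratio of 1.07 to each other per kb of transcript and of 0.805 per kb of coding sequence, so which of them was higher depended on the length used.

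Of the genes of peptide transport and loading, *Tapbp* was the highest, at 10.6 CPM per kb and percentile 86.8. It is annotated at 33915899 to 33929292 of chromosome 17. *Tap2* had 7.38 CPM (2.15 CPM per kb, percentile 56.5) and *Tap1* 3.83 CPM in its highest entry (1.29 CPM per kb, percentile 48.9). *Tapbp* was thus 8.22 times as abundant as *Tap1* per kb of transcript, and 12.5 times per kb of coding sequence. The ratio of *Tap2* to *Tap1*, the partners in that pump, was 1.66 per kb. It was 0.554 when all entries of each gene were added, which may count the same reads for each of the 3 *Tap1* entries. Among other genes of loading and trimming, *Calr*, the chaperone calreticulin, was the highest, with 154.3 CPM per kb, and *Tapbpl*, which encodes the tapasin-related protein TAPBPR, the lowest, with 2.39 CPM per kb. *Tapbp* lay 4.45 times above *Tapbpl* and 14.5 times below *Calr*. *Erap1*, the aminopeptidase that trims peptides in the endoplasmic reticulum, had 5.73 CPM per kb. All 10 genes of that list had at least 1 CPM, beside 12499 of the 20167 genes over which levels were ranked. The median of the list was 11.6 CPM per kb, beside 3.07 CPM per kb over the members and 1.404 over all genes.

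The immunoproteasome subunits were scarce next to the subunits they replace. *Psmb8* (LMP7) takes the place of *Psmb5*, *Psmb9* (LMP2) that of *Psmb6*, and *Psmb10* (MECL-1) that of *Psmb7*, the catalytic subunits of the standard core particle. *Psmb8* had 3.64 CPM and 2.23 CPM per kb, 11.9 times less per kb than *Psmb5*, with 26.7 CPM per kb. *Psmb9* had 1.55 CPM and 1.14 CPM per kb, 33.8 times less than *Psmb6*, with 38.6 CPM per kb. *Psmb10* had 5.13 CPM and 3.91 CPM per kb, 9.33 times less than *Psmb7*, with 36.5 CPM per kb. Summed per kb, the 3 immunoproteasome subunits made up 6.68% of the RNA of both sets. All 3 lay below each of the 14 standard core subunits, which ranged from 13.4 CPM per kb for *Psma2* to 65.5 for *Psma4* with a median of 30.7. *Psme1* and *Psme2*, whose products form the PA28 activator and are also known to be induced by interferon-gamma, had 28.0 and 14.01 CPM per kb, within the range of the standard subunits. *Psmb11*, the subunit of the thymus, was nearly absent at 0.0615 CPM per kb.

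**Figure D2:**
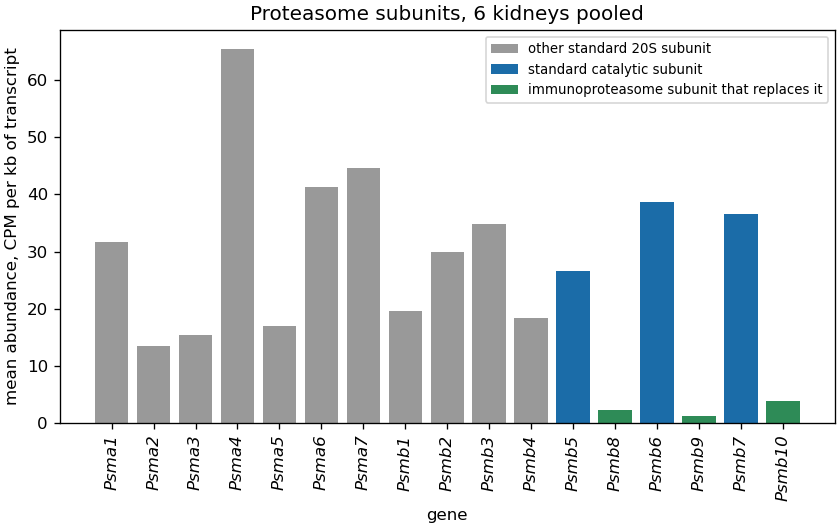
Mean abundance of proteasome subunits in CPM per kb of transcript on a linear axis from 0, pooled over 6 kidneys with no error. Each green bar is an immunoproteasome subunit (1.14 to 3.91), beside the blue bar of the standard catalytic subunit it replaces (26.7 to 38.6), and all 3 green bars are lower than every other bar.

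*Psmb9*, *Tap1*, *Psmb8* and *Tap2* lie next to each other within 34335 bases of chromosome 17 (34181987 to 34216321), in the class II region of the MHC. Their levels per kb were within the narrow range of 1.14 to 2.23. *Psmb9*, which shares the promoter segment shown above with *Tap1*, had 0.887 times its level per kb of transcript and 1.34 times per kb of coding sequence. *Psmb10* is the subunit encoded outside the MHC, on chromosome 8 from 105935735 to 105938444, and was the highest of the immunoproteasome genes. In all, 7 members are on chromosome 17, 2 on chromosome 8 and *B2m* on chromosome 2.

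*Nlrc5*, on chromosome 8 from 94434356 to 94527272 with 49 exons, had 1.58 CPM in its highest entry and, over its long transcript of 6945 bases, 0.226 CPM per kb (percentile 34.9). *Ciita*, the related transactivator of class II genes, was also low, with 0.404 CPM per kb, 1.79 times the level of *Nlrc5*. That ratio was 1.09 in CPM not divided by length. It was 6.75 per kb when all entries of each gene were added, which may count the same reads for each of the 7 *Ciita* entries. Of the 23 regulators, 20 lay above *Ciita* and 2, *Socs1* (0.0660 CPM per kb), an inhibitor of cytokine signalling, and *Ifng*, lay below *Nlrc5*. *Irf1*, an interferon-induced activator of class I genes, had 4.78 CPM per kb. *Rfx5*, *Rfxap* and *Rfxank*, subunits of the RFX complex with which NLRC5 acts at the X box, had 2.22, 2.04 and 5.58 CPM per kb. *Nfyc*, a subunit of the factor that binds CCAAT boxes, was the highest of the 23 regulators, with 16.7 CPM per kb. *Nfya* and *Nfyb*, which encode the other subunits of that factor, had 5.78 and 4.27 CPM per kb. *Ifng* itself was the lowest, with 0.0327 CPM per kb and 0.0395 CPM, close to the lowest value in the table (0.0263 CPM). The receptor genes *Ifngr1* and *Ifngr2* had 8.24 and 4.002 CPM per kb. In total 21 of the 23 regulators had at least 1 CPM, beside 12499 of the 20167 genes over which levels were ranked. The median of the regulators was 4.78 CPM per kb.

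Each gene's transcript entries were also compared with each other, since 5 members had more than 1 entry. Of the 20 entries, 12 were RefSeq transcripts and 8 had been assembled from the reads. The 4 entries of *H2-K1* had 43.0, 43.0, 43.0 and 42.6 CPM. Those of *H2-D1* had 52.6, 52.5 and 52.5 CPM, those of *Tap1* 3.83, 3.81 and 3.80 CPM, and those of *Nlrc5* 1.58 and 1.57 CPM. Entries of these genes therefore differed by less than 1% of the highest one. Near equality of this kind was common. Among 2992 genes of at least 1 CPM with several RefSeq entries, the 2 highest were within 1% of each other in 59.8%. The CPM of all entries added up to 1007270, so CPM is relative to the sum over entries, and a read that fell on several overlapping transcripts may have been counted for each. The values therefore do not tell isoforms apart, and entries were added up only as an alternative beside the reported value. *Tapbp* was the exception. Its assembled entry had 40.0 CPM, and its RefSeq entries of 2898 and 2589 bases had 30.8 CPM each, 76.9% of the former. Where the assembled transcript extends beyond them is not given in the table. In the GENCODE annotation, *Tapbp* overlaps *Zbtb22* on the same strand. On the opposite strand, *Tap1* and *Psmb9* overlap each other, since GENCODE places the end of *Psmb9* that faces *Tap1* further out than RefSeq does, *B2m* overlaps *Patl2*, and *Tapbp*, *Tap2*, *Psmb8*, *Psmb10* and *Nlrc5* overlap non-coding genes. Whether counting used the strand of the reads is not given in the sources used here, so reads of such partners may not have been told apart.

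**Figure D3:**
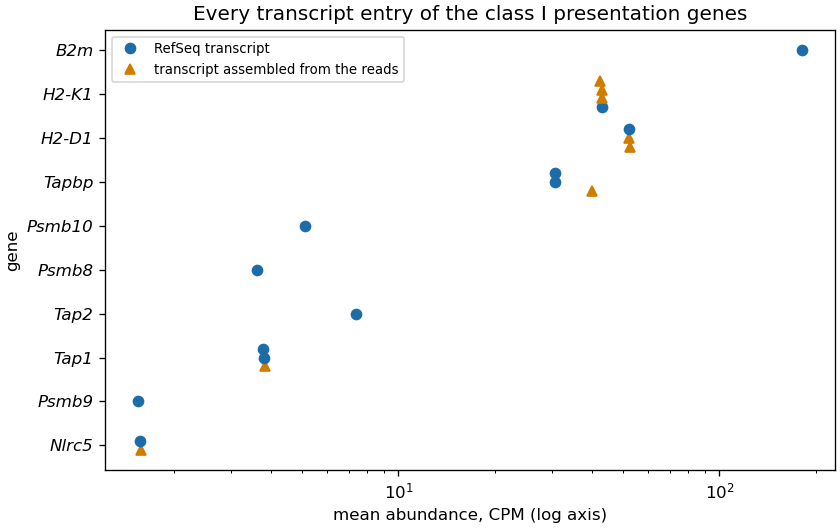
Every transcript entry of the 10 genes by its mean CPM on a log axis, pooled over 6 kidneys, with circles for RefSeq transcripts and triangles for transcripts assembled from the reads. Entries of 1 gene are drawn at separate heights. They lie at nearly the same CPM apart from those of *Tapbp*, at 40.0 CPM (assembled) and 30.8 CPM (both RefSeq entries).

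Class I heavy chains are members of a large family of similar genes, and alignments of low mapping quality had been discarded, so the share of each transcript that recurs elsewhere was measured with windows of the read length, 51 bases. Of the windows of *H2-K1*, 8.22% were found without mismatch in a transcript of another gene that did not overlap it, and of those of *H2-D1*, 13.7%. *H2-D1* itself was the gene that held most of them for *H2-K1* (102 windows). The shared windows of *H2-K1* were spread over 25 other genes and those of *H2-D1* over 154. The latter included genes outside the class I family, such as *Terf1* (23 windows) and *Adsl* (21 windows). The share of *H2-D1* is therefore not all likeness within that family, and the parts were not measured apart. Of the other members, *Tapbp* had 2.001% such windows (over 330 other genes), *Tap1* 0.827% and *Tap2* 0.708%, and 5 had none. The longest run shared by the coding sequences of *H2-K1* and *H2-D1* had 91 bases within exon 4 of each gene, at chr17:33997343-33997433 (reverse strand) and chr17:35265911-35266001 (forward strand) in GRCm38. It is shown because a read of 51 bases that falls within it has at least 1 other exact place, and 18 genes, both of these included, held at least 1 window of it.

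*H2-K1* and *H2-D1*, shared coding run: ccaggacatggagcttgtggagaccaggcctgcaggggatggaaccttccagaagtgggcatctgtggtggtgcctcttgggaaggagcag

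When only windows found in no other non-overlapping gene were counted as length, *H2-K1* had 29.9 CPM per kb and *H2-D1* 29.6 CPM per kb. Windows held by an overlapping gene, 90 for *Psmb8* and 59 for *Psmb5*, stayed in that length. For the standard subunit *Psmb5* the shared part was larger, 49.2% of windows, and with the same length *Psmb8* had 0.0414 times the level of *Psmb5* in place of 0.0837. Reads with mismatches were not considered.

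The study deleted the miR-17~92 cluster in tubules, and matches to its seeds were sought in the 3′-UTRs of the members. The mature microRNAs of the cluster on chromosome 14 are given from RefSeq (GRCm38.p6) with the seed, bases 2 to 8, in capitals.

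mmu-miR-17-5p: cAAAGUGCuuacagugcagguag

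mmu-miR-20a-5p: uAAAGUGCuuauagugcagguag

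mmu-miR-18a-5p: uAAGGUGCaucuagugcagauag

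mmu-miR-19a-3p: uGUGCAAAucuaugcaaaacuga

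mmu-miR-19b-3p: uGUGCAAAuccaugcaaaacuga

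mmu-miR-92a-3p: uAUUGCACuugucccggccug

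miR-17 and miR-20a share 1 seed, as do miR-19a and miR-19b, so 4 sites were sought. Of the 10 members, 9 held none of them. The share of all 3′-UTRs that held none of the 4 sites was not measured, so this count has no background to be compared with. Only exact matches to the whole seed were sought, and other kinds of seed match were not. No member held GCACTTT, the site of miR-17 and miR-20a, which was present in 11.02% of 18923 3′-UTRs, or TTTGCAC, the site of miR-19, present in 10.02%, or GTGCAAT, the site of miR-92a, present in 5.98%. *Nlrc5* held GCACCTT, the site of miR-18a, at positions 753 to 759 of its 3′-UTR of 1197 bases, in its last exon (chr8:94526828-94526834, forward strand). The site of miR-18a was present in 7.20% of 3′-UTRs.

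*Nlrc5*, miR-18a seed match in capitals: agtatttataaGCACCTTctggagaaact

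The 3′-UTRs of the members were short, with a median of 433.5 bases beside 785 bases over all genes, and ranged from 55 bases for *Psmb10* to 1197 bases for *Nlrc5*.

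Among 24 other class I and class Ib genes, 22 were found. Of these, 11 had at least 1 CPM, beside 12499 of the 20167 genes over which levels were ranked. Among the 18 with a length, *H2-T23*, which encodes Qa-1, was the highest per kb, with 8.63 CPM per kb, and *H2-K1* lay 3.08 times above it. *H2-Q4* had 6.48 CPM per kb and *Mr1*, which presents vitamin metabolites to MAIT cells, 4.65. *H2-M10.1* was the lowest, at the lowest value of all entries, which 4617 entries share. Entries at that value differ per kb only by their length. The median of the 18 genes with a length was 0.657 CPM per kb, below that of all genes. The part of the transcript that recurs in other genes varied among these 18. In 9 of them, *Mr1* and *H2-M10.1* included, it was under 4% of windows, and in the other 9 it was 8.17% to 43.9%, with 23.3% for *H2-Q4* and 29.0% for *H2-T23*, whose levels are therefore uncertain. *H2-L*, on the same list, has no length and could not be ranked per kb.

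**Figure D4:**
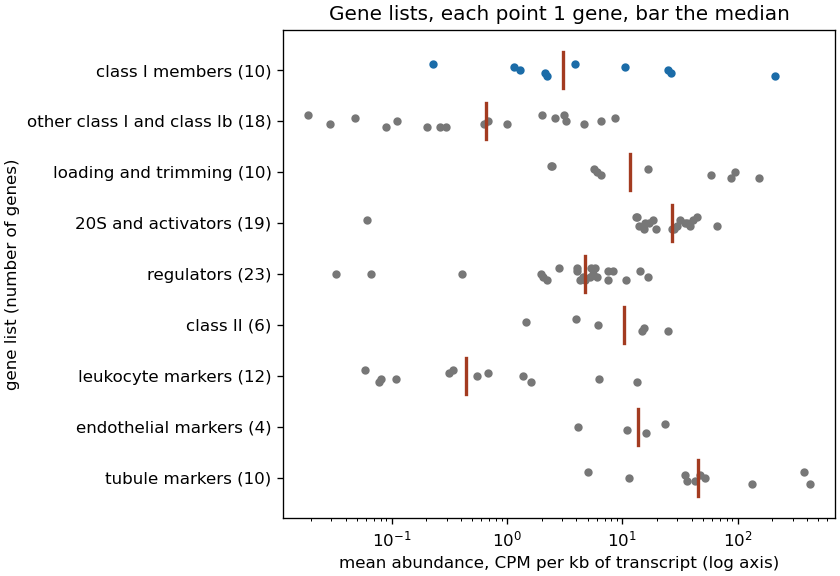
Mean abundance of genes in CPM per kb of transcript on a log axis, pooled over 6 kidneys, by gene list with the number of genes in brackets. Each point is 1 gene and each bar the median of its list. The 10 class I members, in blue, range from 0.226 to 210.1, around a median (3.07) that lies above those of other class I genes (0.657) and leukocyte markers (0.444) and below that of the tubule markers (45.3).

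The tissue was checked against cell markers. The 10 markers of proximal tubule, thick ascending limb, distal tubule and collecting duct ranged from 5.08 CPM per kb for *Slc4a1* to 423.1 for *Slc34a1*, the phosphate transporter of the proximal tubule, with a median of 45.3. The 4 endothelial markers lay between 4.15 CPM per kb for *Kdr* and 23.3 for *Emcn*. All 13 leukocyte marker genes were found and 8 had at least 1 CPM, beside 12499 of the 20167 genes over which levels were ranked. The median of the 12 with a length was 0.444 CPM per kb, with *Lyz2*, a lysozyme of macrophages, the highest at 13.4 and *Cd8b1*, a chain of the CD8 receptor that reads class I, the lowest at 0.0582. *Cd8a*, the other chain, had 0.316 CPM per kb. Which of these cells the class I transcripts came from was not tested.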

How the data were processed

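Kidney RNA of 3 SKO and 3 DKO mice was read from stranded libraries of total RNA, with 51 bases from 1 end. A quality of at least 10 was required of an alignment, which can lower the values of genes with close copies. The aligner was TopHat 2.0.12, and the genome mm10 with gene models from iGenomes. The submitters' processing notes also list Cufflinks, featureCounts (Subread 1.4.6) and edgeR (3.2.4) without saying which step each served. The deposited log2 values are the authors' log2 of the mean abundance of each transcript in CPM, pooled over all libraries. The table's fold changes, statistics, p-values and adjusted p-values hold the authors' own comparison of DKO with SKO and were not used. A quasi-likelihood test of the groups had been planned, but it needs counts for each library and was not run. Library depths are not known, and neither intervals nor floors were set.

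Here log2 CPM was turned into CPM. Each gene was given by its highest entry in CPM, and per kb by its highest RefSeq entry with a transcript in GENCODE M21 (GRCm38), whose length was used. Of 27012 RefSeq mRNA entries, 26086 had a length. A percentile is the share of genes with a lower value. Windows of 51 bases, on both strands, were matched without mismatch to all GENCODE transcripts. Seed matches and motifs were sought as exact letters. The procedures were tested on simulated sequences in Python 3.11.15. Protein sequences were not used here. Named genes were all members and, from lists of related genes and cell markers, those at the ends of a list by level or set beside a member. Any other gene named was chosen after its values were seen. The members and lists were chosen with earlier results of these data known.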

Additional observations from a re-analysis of the deposited data

How the results depend on the processing

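Only a pooled mean was available, so the planned comparison of DKO with SKO and its alternatives (DESeq2, its size factors, no filter on low counts, leaving out each library) were not run. A level or ratio was taken as moved when it changed by over 1.5 times, and a percentile when it changed by over 10 points. With coding length in place of transcript length, the median level of the members was 5.31 CPM per kb in place of 3.07, the ratio of *Psmb8* to *Psmb5* 0.145 in place of 0.0837, that of *Psmb9* to *Psmb6* 0.0545 in place of 0.0296, and that of *H2-K1* to *B2m* 0.0773 in place of 0.127. The ratio of *H2-K1* to *H2-D1* turned from 1.07 to 0.805, and that of *Psmb9* to *Tap1* from 0.887 to 1.34. With all entries of a gene added, which counts shared reads repeatedly, the ratio of *Psmb8* to *Psmb5* was 0.0334, that of *H2-K1* to *B2m* 0.505, that of *H2-D1* to *B2m* 0.357 and that of *B2m* to *Nlrc5* 462.8 in place of 929.6, and that of *Tap2* to *Tap1* turned from 1.66 to 0.554. A further alternative, added after the data were seen, counted as length the windows found in no other non-overlapping gene. With it, *Psmb8* to *Psmb5* was 0.0414, and *Psme1* to *Psme2* turned from 1.998 to 0.944. The members' median percentile was 62.7 over all genes and 39.9 over genes of at least 1 CPM. Of 121 recomputed values, 75 stayed within the limits, 42 moved and 4 turned. Each ratio of an immunoproteasome subunit to its counterpart, and of a heavy chain to *B2m*, stayed below 1 under each alternative run. Depth and the spread between kidneys are unknown and limit every value.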

Other observations

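Class II genes, which present peptides taken up from outside the cell, were set beside the class I members. *Cd74*, the invariant chain, was the highest of the 6, with 24.8 CPM per kb, close to *H2-K1* and *H2-D1* at 26.6 and 24.96. *H2-Ab1* and *H2-Aa*, the chains of the I-A molecule, had 15.4 and 14.7 CPM per kb, and *H2-Eb1* 6.11. *H2-DMa*, a chain of the molecule that loads class II, was the lowest, with 1.45 CPM per kb. The median of the 6 genes was 10.4 CPM per kb.

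An entry named *H2-L* had 36.5 CPM, 69.4% of the highest entry of *H2-D1*. Mice of the B6 background carry the H2b haplotype, which is known to lack an *H2-L* gene. The annotation used here holds no length for it, and which reads were counted for this entry was not tested. *H2-M3* was among the 13 other genes whose promoter held the 25-base spacing of CRE core and inverted CCAAT box. *H2-M3*, which encodes a class Ib heavy chain, had 0.626 CPM per kb.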
